A study of Gallus gallus with 6 samples.

Results

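The predicted miRNAs of chicken abdominal fat were the 116 entries of the deposited table whose names begin with novel_, out of 667 miRNAs in all (17.4%). They were taken by name alone, and the other 551 entries carry chicken miRNA names and are called named miRNAs here. Small RNA was sequenced from abdominal fat of broilers (Gallus gallus) at day 35, in 3 libraries of birds given 50 IU vitamin E and 3 control libraries. The birds came from a feeding study of 240 healthy female chicks, started at 1 day of age, whose 5 diets held DL-α-tocopherol acetate at 0, 20, 50, 75 or 100 IU. That compound is an esterified synthetic vitamin E. The dose of the control diet is not on the labels of its samples, which also do not say whether a library holds 1 bird or several, so a p-value here speaks to the variation among these libraries alone, and that variation may be technical.

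A miRNA is cut from a hairpin in a longer transcript by the enzymes Drosha and Dicer, and guides an Argonaute protein to transcripts that match its seed, the bases near its 5′ end. Prediction programs search sequenced small RNAs for read stacks that fit such a hairpin at places in the genome where no miRNA is registered. A predicted name therefore stands for reads and a putative hairpin and carries no family, target or function. The sources used here do not give how these predictions were made, nor their sequences and positions, so no role is assigned to any of them below.

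The 6 libraries held 5028671 to 7357204 counts. A count of 0 allows up to 0.408 to 0.597 CPM (counts divided by the library total and scaled to 1000000) depending on the library, counting error only. The 8 rows of fat and stroma miRNAs, from miR-26a, miR-148a, miR-199 and miR-126, summed to 273865 to 344365 CPM. Nearly all of that was miR-26a-5p, miR-148a-3p, both arms of miR-199 and miR-126-3p, while miR-126-5p was at 0 in 4 libraries and miR-26a-3p at 8.55 to 26.5 CPM. Markers of blood cells were abundant too, with 5469.5 to 10782 CPM in the 4 rows of leukocyte markers and 1405 to 5294 CPM in the 3 rows of red cell markers. The 3 rows of gut markers, miR-215 and miR-194, summed to 917 CPM in control 2 and 100.1 to 165 CPM elsewhere, with miR-215-3p at 0 in some libraries. The 5 rows of neural and endocrine markers summed to 159 to 177 CPM with vitamin E and 33.5 to 48.6 CPM in control. Most of that was miR-9-5p, at 143 to 158 CPM with vitamin E and 25.5 to 42.4 CPM in control. miR-9-3p and miR-124a-3p were also higher in all vitamin E libraries, and miR-124a-5p was at or near 0. miR-375 stood at 1.52, 0.675 and 1.87 CPM with vitamin E against 1.57, 2.97 and 3.95 CPM in control. The 2 rows of the liver marker miR-122 summed to 5.24, 6.07 and 7.31 CPM with vitamin E and 15.5, 20.8 and 12.4 CPM in control, so these groups did not overlap either. Nearly all of that was miR-122-5p, and miR-122-3p was at 0 to 0.405 CPM, highest in vitamin E 2.

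Nearly all reads on predicted miRNAs belonged to 1 of them. The predicted miRNAs together held 4108923 counts, and novel_1 alone held 3751808. Of the rest, 10 had at least 1000 counts over the 6 libraries, which with novel_1 makes 11 members (9.48%, against 24.1% of named miRNAs). Another 6 members had from 100 to under 1000 counts, 46 had from 10 to under 100 and 53 had fewer than 10. The median member had 11.5 counts over all libraries, and the median named miRNA had 19. Single reads were less common among predicted miRNAs, where 6 of 116 (5.17%) had a total of 1, than among named ones (15.6%). The reverse held for totals from 10 to under 100, which covered 39.7% of predicted and 20.1% of named miRNAs.

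The names run from novel_1 to novel_368, and low numbers went with high abundance. Below number 100, Spearman's rho between the number and the summed counts was -0.98 over 12 members, and from 100 upwards it was -0.16 over 104. It is given as a description over members of the same 6 libraries. The 12 members numbered below 100 had a median of 11836 counts in all, with novel_93 lowest at 23. The median was 11 counts for the 39 members numbered from 100 to below 200, 12 for the 37 from there to below 300 and 7 for the 28 numbered 300 or above. Among the high numbers, novel_302 with 6967 counts and novel_299 with 4061 stood far above their neighbours, followed by novel_235 with 268 and novel_304 with 119.

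**Figure D1:**
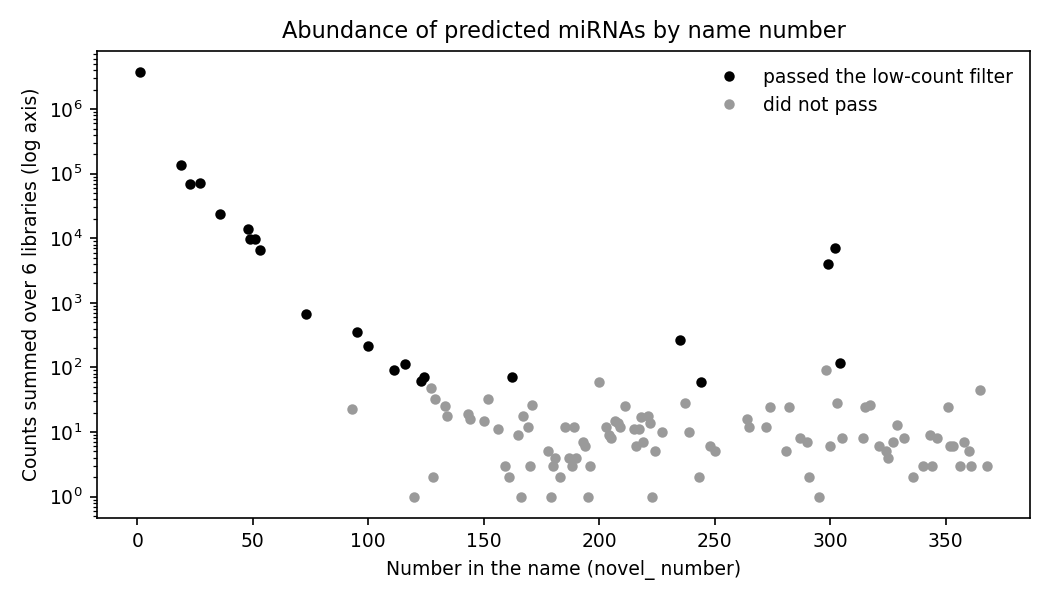
Counts summed over the 6 libraries (log axis) against the number in the name for each of the 116 predicted miRNAs, black where the member passed the low-count filter and grey where it did not. Totals fall steeply from the lowest numbers and then lie flat, with novel_299 (4061 counts) and novel_302 (6967 counts) standing above the rest.

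The share of reads on predicted miRNAs was lower in the vitamin E libraries than in the controls, and most of the gap lay in novel_1, whose own share differed by -2.78 percentage points. All predicted miRNAs together took 7.86%, 9.98% and 10% of all counts with vitamin E, and 10.1%, 11.5% and 14.7% in the controls. The means were 9.29% ± 1.24 and 12.1% ± 2.32 (SD, n = 3; two-sided exact permutation p = 0.1, the smallest that 3 against 3 allows). The groups did not overlap, but vitamin E 3 and control 1 lay next to each other at 10% and 10.1%. The share of novel_1 by itself did overlap, at 9.23% in vitamin E 3 and 8.94% in control 1 (two-sided exact permutation p = 0.2). The other predicted miRNAs had their largest share, 1.19%, in control 1. For all predicted miRNAs together, the difference of -2.82 percentage points was -1.54 without control 3, the library with most novel_1. The liver marker sum, nearly all miR-122-5p, was likewise lower in all 3 vitamin E libraries. The leukocyte marker sum was highest in control 3 (10782 CPM) and next in vitamin E 1 (8937 CPM), the library with least novel_1. Most of that sum was miR-142-5p (9973 CPM in control 3), while miR-155 was lowest in control 3 (13.6 CPM). miR-142-3p was highest in vitamin E 2 (327 CPM, control 3 at 213 CPM) and miR-223 in vitamin E 1 (784 CPM, control 3 at 583 CPM). The part of these markers in the share was not tested.

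Without novel_1, the other predicted miRNAs took about 1 in every 100 counts in both groups. Their share was 0.856%, 1.08% and 0.80% with vitamin E and 1.19%, 0.837% and 0.825% in control, with means of 0.911% ± 0.145 and 0.952% ± 0.209 (SD, n = 3; two-sided exact permutation p = 0.7). The high libraries, vitamin E 2 and control 1, came from both groups and were those with most novel_19. With novel_19 also left out, the shares were 0.599% ± 0.0334 and 0.553% ± 0.103 (two-sided exact permutation p = 0.7, n = 3). Over 18 such measures of composition and detection, 7 reached the smallest possible p of 0.1, and their Benjamini-Hochberg adjusted exact permutation p was 0.257. The 7 are not separate results. Several measure the same members in other ways, such as the numbers with at least 3 and at least 10 counts.

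**Figure D2:**
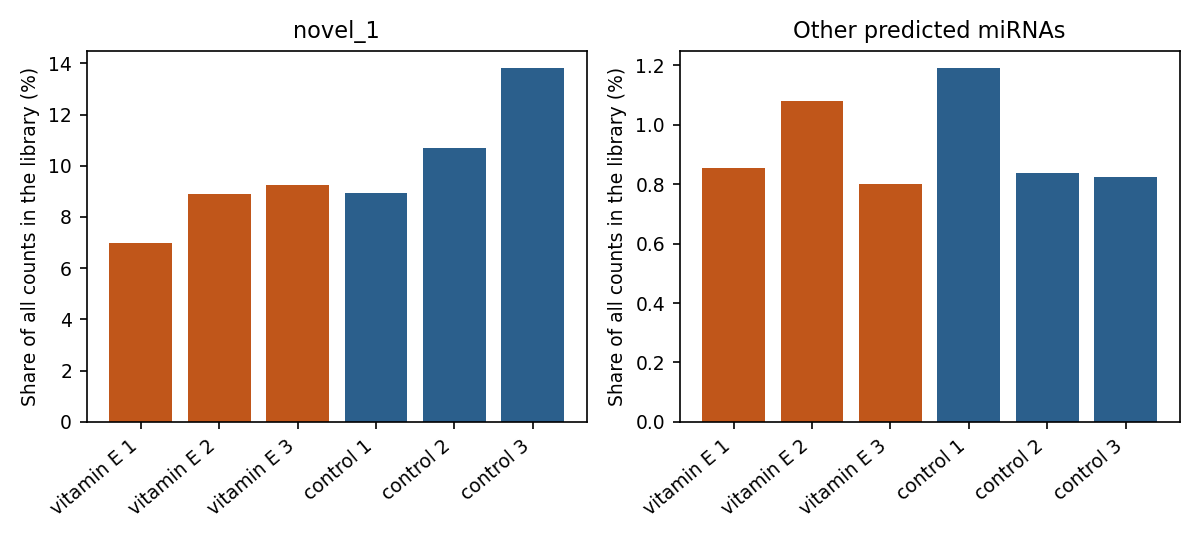
Share of all counts in each library (%, bars from 0) taken by novel_1 (left) and by the other 115 predicted miRNAs (right, a smaller scale), orange for vitamin E and blue for control. The share of novel_1 runs from 7.0% to 13.8% with control 3 highest, and the other members together stay between 0.80% and 1.19%.

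Differences between vitamin E and control were estimated over all miRNAs that passed a filter on low counts. Of 116 predicted miRNAs 22 passed (19%), against 216 of 551 named ones (39.2%). None of the 22 passed the threshold of the edgeR quasi-likelihood fit (Benjamini-Hochberg over 238 miRNAs), where 0.42% of all miRNAs tested did. At an unadjusted p under 0.05 there were 2, novel_1 and novel_116, against a background of 7.56%. Among alternative fits of the same 22 members, the edgeR likelihood ratio test, DESeq2, a replicate block, limma-voom and limma on TPM also called 0, with unadjusted p under 0.05 for 0 to 2 members. The fold changes of the 22 had a median of -0.27 on the log2 scale and the 216 named miRNAs one of -0.025. A fold change below 0 was found for 17 members, and for 54.2% of all miRNAs tested. That split of 17 below and 5 above was 16 and 6 on library totals alone, and 18 and 4 with median-of-ratios or upper-quartile factors. It was 15 and 7 in limma-voom and 14 and 8 in limma on log2(TPM + 1), which changes the scaling and the model together. On library totals alone the median log2 fold change of all miRNAs tested was 0.03, against -0.074 on TMM-scaled sizes.

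novel_1 was one of the 4 most abundant miRNAs in every library, ranking 4, 3 and 3 with vitamin E and 3, 2 and 2 in control. On TMM-scaled library sizes it stood at 69104, 84880.4 and 87535 CPM with vitamin E and 103848, 106496 and 133890.4 CPM in control. All 3 vitamin E libraries were below all 3 controls on this scale. In the deposited TPM, which scale by the library total, the ranges overlapped, with vitamin E 3 above control 1. The edgeR fit on TMM-scaled sizes gave a log2 fold change of -0.51 (SE 0.20), with a 95% interval of -0.97 to -0.05. The Benjamini-Hochberg adjusted p of novel_1 in that edgeR fit was 0.504. On library totals alone the log2 fold change was -0.41. It stayed below 0 in all 17 alternative fits that kept novel_1, from -0.66 without control 1 to -0.40 in limma on log2(TPM + 1).

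The groups also did not overlap in TMM-scaled CPM for novel_36 and novel_53, both lower with vitamin E. That makes 3 of 22 members (13.6%), all lower, where 13.9% of all miRNAs tested did not overlap and 5.04% did so with vitamin E lower. novel_36 stood at 575, 592 and 499.9 CPM against 624, 607 and 790.3 CPM, a log2 fold change of -0.28 (SE 0.24). Its nearest libraries, vitamin E 2 and control 2, differed little. novel_53 stood at 156, 168 and 117 CPM against 170.3, 183 and 231 CPM, a log2 fold change of -0.41 (SE 0.29), with vitamin E 2 next to control 1. On deposited TPM these members overlapped, as did novel_1. The TMM factor was 0.86 in control 1 and 1 to 1.05 in the other libraries, which raised control 1 on the TMM scale. On deposited TPM novel_51 alone did not overlap, the vitamin E libraries being higher, where 13.0% of all miRNAs tested did not overlap. novel_51 stood at 325, 246 and 291 CPM against 287, 231 and 176 CPM on TMM-scaled sizes, a log2 fold change of 0.32 (SE 0.29).

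**Figure D3:**
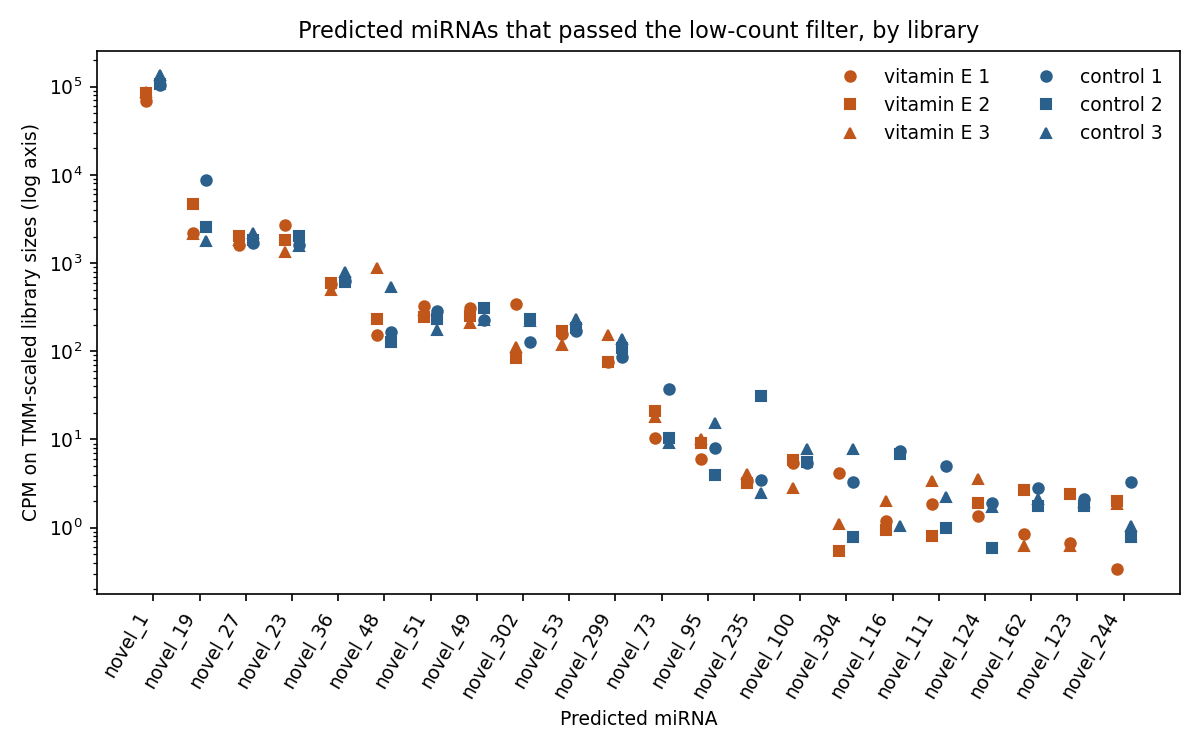
TMM-scaled CPM (log axis) of the 22 predicted miRNAs that passed the filter, ordered by summed counts, with orange symbols for the 3 vitamin E libraries and blue for the 3 controls. novel_1 lies from 69104 to 133890.4 CPM, the next 10 between 74.9 and 8753 CPM and the last 11 below 40 CPM, and the groups are mixed for most members.

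Among the other abundant members some were steady across libraries and some varied severalfold within both groups. novel_27 stood at 1598, 2026 and 1806 CPM with vitamin E and 1691, 1809 and 2217 CPM in control, a ratio of highest to lowest of 1.39. novel_49 ran from 209.6 to 307 CPM with equal group means of 255 CPM, and its fold change changed sign in 10 of 18 alternative fits. novel_23 stood at 2706, 1836 and 1320.4 CPM against 1613, 2037 and 1578 CPM, a spread set by the vitamin E libraries. Its log2 fold change was 0.17, and -0.14 without vitamin E 1.

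novel_19, the second most abundant member, was high in 1 library of each group. It stood at 2164, 4673 and 2135 CPM with vitamin E and 8753, 2570.2 and 1788 CPM in control, so that vitamin E 2 and control 1 were above the other libraries. Its log2 fold change of -0.55 (SE 0.61) was 0.39 without control 1 and -1.06 without vitamin E 2. The less abundant novel_73 was highest in the same libraries, at 10.3, 21.2 and 18.2 CPM against 37.7, 10.3 and 9.08 CPM. Its log2 fold change was -0.20, and 0.70 without control 1. novel_244 stood at 0.338, 2.02 and 1.87 CPM with vitamin E and 3.31, 0.792 and 1.05 CPM in control. Of the striated muscle markers, miR-133a was also highest in vitamin E 2 (515 CPM) and control 1 (460.4 CPM), while miR-1a was higher in vitamin E 3 (3.42 CPM) than in control 1 (2.09 CPM). With miR-206, the 3 rows summed to 242, 521 and 338 CPM with vitamin E and 463, 229 and 366 CPM in control, nearly all of it miR-133a, and miR-206 was at or near 0 throughout. Their part in the values of novel_19, novel_73 and novel_244 was not tested.

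novel_48 was high in the libraries numbered 3 of both groups. It stood at 151, 233 and 869.5 CPM with vitamin E and at 165, 127 and 541 CPM in control. Vitamin E 3 and control 3 lay above the other 4 libraries, and the spread within each group was close to the mean (418 ± 393 and 278 ± 229 CPM; SD, n = 3). The log2 fold change was 0.59 (SE 0.76), but -0.60 without vitamin E 3 and 1.5 without control 3. novel_299 was also highest in vitamin E 3 and control 3, at 75.8, 74.9 and 153 CPM against 85.2, 109 and 136 CPM. Over all miRNAs tested, the deviations of the libraries numbered 3 from their group means had a correlation of -0.0094. With 3 libraries per group, that value cannot decide whether the numbers pair libraries. novel_302 had another pattern, with 343, 83.7 and 112 CPM against 127, 234 and 222 CPM, vitamin E 1 being highest. Its log2 fold change was -0.11, and -0.98 without vitamin E 1.

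Below 40 CPM the fold changes rested on few reads. novel_116 had the most negative one, with 7, 7 and 13 counts with vitamin E, against 42, 35 and 8 in control, or 1.18, 0.945 and 2.02 CPM against 7.32, 6.93 and 1.05 CPM. Control 1 and control 2 were high, and control 3 lay among the vitamin E libraries. This was a log2 fold change of -1.86 (SE 0.75), with a 95% interval of -3.58 to -0.14, and the Benjamini-Hochberg adjusted p from edgeR was 0.504. The fold change ran from -2.38 to -1.46 when a library was left out. novel_304 had 25, 4 and 7 counts with vitamin E, against 19, 4 and 60 in control, with high and low libraries in both groups. Its log2 fold change of -1.07 (SE 0.93) was -2.30 without vitamin E 1 and -0.16 without control 3. novel_124 was the low member with the highest fold change, 0.67 (SE 0.59), at 8, 14 and 23 counts against 11, 3 and 13. Without vitamin E 3 it was 0.12.

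Of the remaining low members that were tested, novel_95 had 3.96 to 15.5 CPM, with both extremes in control, and a log2 fold change of -0.13 that was 0.44 without control 3. novel_100 stood at 2.80 to 7.76 CPM. Its log2 fold change was -0.42 (SE 0.47), and -0.21 without vitamin E 3. novel_111 stood at 0.81 to 5.06 CPM, and its fold change of -0.45 became 0.21 without control 1.

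novel_123 and novel_162 had alike profiles. novel_123 had 4, 18 and 4 counts with vitamin E, against 12, 9 and 15 in control, and novel_162 had 5, 20 and 4 against 16, 9 and 16. Both were low in vitamin E 1 and vitamin E 3. As a description, the chi-square between their counts over the libraries was 0.336 on 5 degrees of freedom, which takes reads as independent and covers counting error only. The pair was picked as the lowest of 276 among the 24 members with at least 50 counts. The sources used here do not say how reads that match more than 1 entry were counted, so their counts are reported as uncertain. The log2 fold changes were -0.62 (SE 0.60) and -0.65 (SE 0.62), and without vitamin E 2 they were -1.58 and -1.61.

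**Figure D4:**
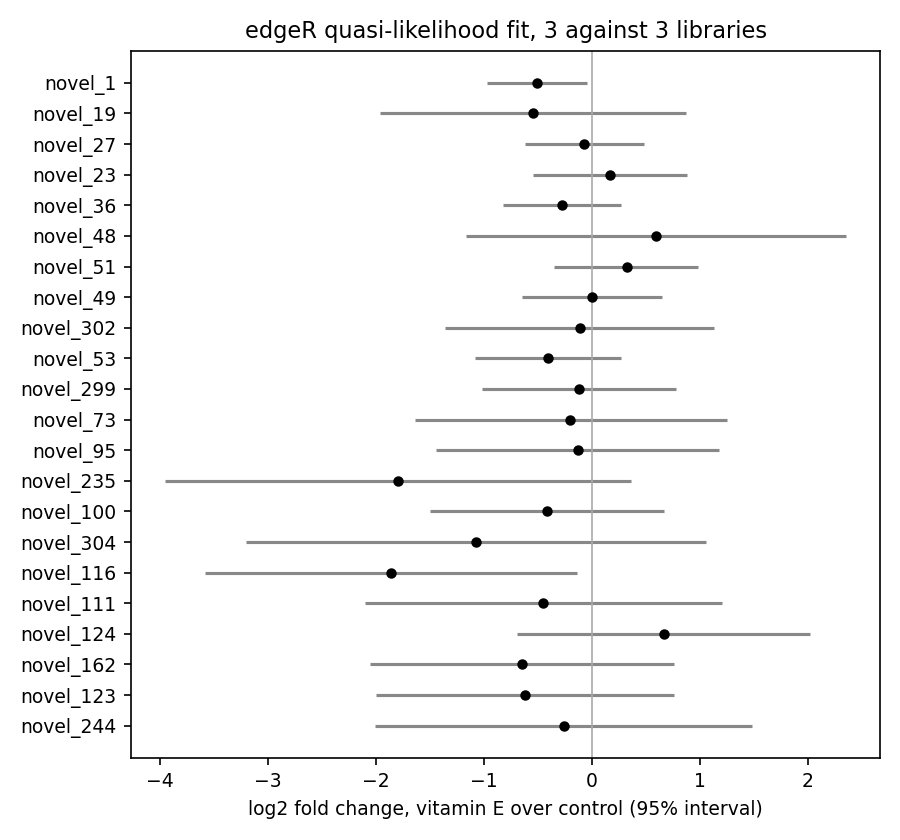
Log2 fold change of vitamin E over control (points) with 95% intervals (lines) from the edgeR quasi-likelihood fit for the 22 predicted miRNAs that passed the filter, ordered by summed counts. The intervals of novel_1 (-0.97 to -0.05) and novel_116 (-3.58 to -0.14) lie below 0 and the other 20 span it.

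Several predicted miRNAs were found mostly in 1 library, and that library was most often control 2. Of 39 members with at least 20 counts in all, 10 (25.6%) had over 50% of their summed TPM in a single library. Of the 275 named miRNAs with at least 20 counts, 14 (5.09%) did. The 2 sets were not matched for abundance, since 11 of the 39 members and 133 of the 275 named miRNAs had at least 1000 counts. The libraries of those 14 are not given here. Control 2 was that library for 8 of the 10 members, and vitamin E 3 and control 1 for 1 each. Among the 63 members with at least 10 counts, the highest TPM was in control 2 for 18, in control 3 for 15 and in control 1 for 11. In the vitamin E libraries it was highest for 6, 5 and 8. These are 28.6%, 23.8% and 17.5% for control 2, 3 and 1 and 7.94% to 12.7% for the vitamin E libraries. Of 311 named miRNAs with at least 10 counts, 16.1%, 13.2% and 24.4% were highest in control 2, 3 and 1, and 14.1% to 16.1% in each vitamin E library. Control 2 was the library with the fewest counts.

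novel_235 was the most abundant of these. It had 20, 24 and 26 counts with vitamin E, against 20, 159 and 19 in control, so control 2 stood 7.41 times above the next library in TPM and the other 5 were level, at 2.50 to 4.05 CPM. The log2 fold change of -1.80 (SE 0.94) was 0.27 without control 2. novel_298 had 9, 4 and 15 counts against 9, 43 and 11, again high in control 2, and did not pass the filter.

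Among members with at least 20 counts, the largest shares in 1 library were those of novel_282 with 79.2% of its TPM in control 2, novel_171 with 74.9%, novel_129 with 66.2%, novel_237 with 66.2% and novel_235 with 65.5%. novel_282 had 2, 0 and 0 counts with vitamin E, against 4, 18 and 0 in control. novel_129 had 4, 0 and 2 against 5, 20 and 2. novel_237 had 1, 3 and 2 against 19, 2 and 1, and was high in control 1 alone. The other members high in control 2 were novel_317 with 15 counts there and 0 to 4 elsewhere, novel_351 with 13 and 1 to 3, and novel_274 with 12 and 0 to 7. Control 2 also held the most gut marker reads (917 CPM), mainly miR-215-5p. Of the 5 epithelial marker rows, which summed to 373 CPM there and 181 to 312 CPM elsewhere, miR-205b alone was highest in control 2 (230.3 CPM against 12.8 to 48.6 CPM). miR-200a-3p and miR-200b-3p stood at 88.3 and 49.5 CPM there, below their highest levels of 162 and 109.6 CPM. The part of other tissues in these members was not tested.

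novel_171 was detected only in 2 of the controls, with 0, 0 and 0 counts with vitamin E, against 8, 18 and 0 in control. Its level summed over the controls was 9.31 times the level that 3 counts over the vitamin E group would give, taken as the limit of 0. novel_171, like novel_143 below, was picked for 0 counts in 1 group and at least 10 in the other. A level above the limit followed from that choice. That limit covers counting error in the vitamin E group only and no variation between libraries, and control 3 was at 0 too. It did not pass the filter, and without any filter it was the 1 predicted miRNA called (adjusted p = 0.0101, edgeR quasi-likelihood, Benjamini-Hochberg over 667). novel_143 was the mirror case, at 0 in all controls and with 0, 1 and 18 counts with vitamin E, nearly all in vitamin E 3. Its level summed over the vitamin E libraries was 5.90 times the same kind of limit for the controls, and rested on vitamin E 3. novel_152 was also highest in vitamin E 3, at 18 counts against 2 to 5 elsewhere.

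Of the remaining members that missed the filter with at least 10 counts in some library, novel_365 had 1, 19 and 2 counts with vitamin E, against 1, 13 and 8 in control, high in 1 library of each group. novel_200 had 8, 5 and 5 against 23, 8 and 10, novel_127 stayed between 6 and 11, and novel_315 had 10 in control 3 and 2 to 5 elsewhere. The other 80 members never exceeded 8 counts in a library and summed to 658 counts. Together, the members that did not pass held 0.0282% of the counts on predicted miRNAs.

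Detection of predicted miRNAs depended on the number of reads required. At least 1 count was found for 67, 68 and 82 members with vitamin E and 81, 75 and 79 in control, with means of 72.3 ± 8.39 and 78.3 ± 3.06 (SD, n = 3; two-sided exact permutation p = 0.4). Vitamin E 3 was the highest of all and the groups overlapped. The difference of -6.0 was -10.8 without vitamin E 3 (two-sided exact permutation p = 0.1, the smallest possible there). It was -3.33 without vitamin E 1 and -3.83 without vitamin E 2 (two-sided exact permutation p = 0.7 for both). Leaving out a control gave -7.67 to -4.67 (two-sided exact permutation p = 0.4 to 0.5). Of the 116 members, 38 were detected in all 6 libraries (32.8%, against 48.5% of named miRNAs). In 1 library only there were 18 members (15.5%, against 20.5%), 8 of them in control 1 and 0 in vitamin E 1, each with at most 5 counts. Detection was confined to control libraries for 18 members and to vitamin E libraries for 9, while for named miRNAs those numbers were 71 and 77.

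At least 3 counts were found for 38, 41 and 41 predicted miRNAs with vitamin E and 58, 51 and 53 in control. The groups did not overlap, with means of 40 ± 1.73 and 54.0 ± 3.61 (SD, n = 3; two-sided exact permutation p = 0.1, the smallest possible). With all libraries thinned to 5028671 counts the means were 36.3 ± 2.08 and 49.0 ± 3.46. Named miRNAs with at least 3 counts numbered 279, 291 and 275 with vitamin E and 284, 263 and 274 in control, so these overlapped. Predicted miRNAs made up 12.4% ± 0.499 of all miRNAs with at least 3 counts in the vitamin E libraries and 16.5% ± 0.424 in the controls (two-sided exact permutation p = 0.1, n = 3). At 10 counts the numbers were 17, 20 and 22 against 24, 25 and 23. The members with fewer than 1000 counts in all summed to 329, 514 and 494 counts with vitamin E, against 685, 624 and 602 in control, again with no overlap. As shares of all counts, vitamin E 3 (0.0081%) and control 3 (0.00818%) lay next to each other. Single members weighed on these sums, with 216 counts of novel_73 in control 1 and 159 of novel_235 in control 2.

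**Figure D5:**
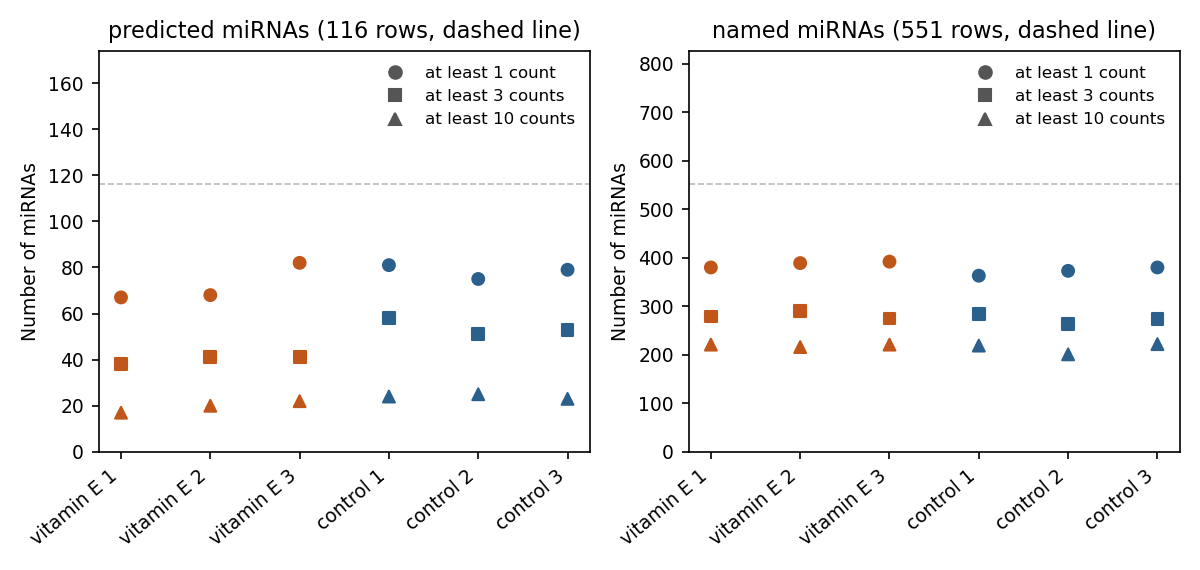
Number of miRNAs with at least 1 (circles), 3 (squares) and 10 counts (triangles) in each library, predicted on the left and named on the right, orange for vitamin E and blue for control, with a dashed line at the number listed. For predicted miRNAs the squares lie at 38 to 41 with vitamin E and 51 to 58 in control, while for named miRNAs the groups overlap.

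Spread between libraries differed between predicted and named miRNAs in the vitamin E group. Over the miRNAs that passed the filter, the median SD of log2(CPM + 1) among vitamin E libraries was 0.502 for 22 predicted and 0.288 for 216 named miRNAs. Among controls it was 0.414 and 0.47. The median biological coefficient of variation in the edgeR fit was 0.494 for predicted and 0.403 for named miRNAs. Their median summed counts were 2366 and 2136, but the predicted median falls in a gap between novel_299 (4061 counts) and novel_73 (672 counts). At least 1000 counts were found for 11 predicted and 133 named miRNAs, so the sets were not matched for abundance. These medians are descriptions of the members that passed and were not tested.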

How the data were processed

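Small RNA of 6 abdominal fat libraries was compared, 3 with vitamin E and 3 control. The authors deposited a whole-number value for each miRNA and library in columns headed readcount. Their deposited TPM is that count over the library total times 1000000, without regard to length. The sources used here do not give the aligner, counting rule, prediction program, genome build or library kit.

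Counts of all 667 miRNAs were fitted with edgeR 4.0.16 in R 4.3.3 (TMM factors, filterByExpr with a minimum count of 10 and total of 15, robust quasi-likelihood F test). Benjamini-Hochberg adjustment ran over 238 miRNAs with a threshold of 0.05. SE was derived from the F statistic. Levels are CPM on TMM-scaled library sizes. The fit was tested on simulated data. The changes set there were larger than the fold changes reported here, so that test does not show power for small ones. Alternatives used limma 3.58.1 and DESeq2 1.42.0, among others. Single values per library were compared by two-sided exact permutation over 20 relabellings, or fewer where a library was left out. Thinning drew counts without replacement with a fixed seed.

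Named members were all that passed the filter, those with at least 10 counts in some library, and the 5 with at least 20 counts and the largest share in 1 library. The members and lists were chosen with earlier results of these data known. The comparison at 3 counts, the pair scan, the split of name numbers and the 50% share were chosen after values were seen.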

Additional observations from a re-analysis of the deposited data

How the results depend on the processing

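The number of miRNAs past the threshold, 1 in the reported fit, was 0 with upper-quartile factors, 8 without a filter, 4 with the edgeR likelihood ratio test, 5 with the replicate block, 7 with DESeq2 and 3 with limma on log2(TPM + 1), and 0 to 1 when a library was left out. For predicted miRNAs the number, 0 in the reported fit, was 1 without a filter (novel_171) and 0 in the other 17 alternative fits. Replicate numbers 1 to 3 occur in both groups. The deviations of libraries with the same number had correlations of -0.15, 0.082 and -0.0094. With 3 libraries per group these values cannot decide whether the numbers pair libraries. The labels do not say that they do, so the reported fit has no block.

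Of the 22 predicted miRNAs tested, 10 kept the sign of their fold change in all alternatives in which they were tested. Leaving out 1 library gave log2 fold changes of -1.13 to 0.21 for novel_111, -1.06 to 0.39 for novel_19, -0.14 to 0.33 for novel_23, -2.28 to 0.27 for novel_235, -0.64 to 0.52 for novel_244, -0.24 to 0.017 for novel_27, -0.60 to 0.064 for novel_299, -0.98 to 0.20 for novel_302, -0.60 to 1.5 for novel_48, -0.15 to 0.15 for novel_49, -0.59 to 0.70 for novel_73 and -0.53 to 0.44 for novel_95. Library totals alone gave 0.022 for novel_27, and limma on log2(TPM + 1) and on log2(TPM + 0.1) gave 0.038 in both. For novel_49, at 0.00012 in the reported fit, median-of-ratios factors gave -0.054, upper-quartile factors -0.079, the filter of 10 CPM -0.095, the replicate block -0.0031, the fit without novel_1 -0.075 and DESeq2 -0.054. For novel_73 the replicate block gave 0.12, limma-voom 0.076, and limma on TPM 0.15 and 0.17. For novel_95 the replicate block gave 0.029, limma-voom 0.029, and limma on TPM 0.13 and 0.16. The cause of these changes was not tested.

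The difference in the share of predicted miRNAs other than novel_1 (-0.0413 percentage points, vitamin E minus control) ran from -0.124 to 0.0793 when a library was left out. The number of members detected in 1 library only, 18, was 33 at 3 counts and 11 at 10 counts. All but the 11 most abundant members had fewer than 1000 counts over the 6 libraries, which limits what their values can show. Some of the 11 were imprecise too, with an SE of 0.76 for novel_48 and 0.61 for novel_19.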
